A study of Mus musculus with 6 samples.

Results

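The genes described here are the clustered Zfp genes of the mouse: protein-coding genes on chromosomes 1 to 19 of the mm10 build whose symbol is Zfp followed by digits, and whose annotated start site has at least 2 other such start sites within 500 kb. Of the 20807 protein-coding genes on these chromosomes in GENCODE M21, 358 carried such a symbol and 217 met the distance rule. Chaining neighbouring start sites gave 31 clusters on 14 chromosomes, which together spanned 17.2 Mb, with 4.25 Mb inside the genes themselves. The rule uses names and positions only and no measured value. At its edge, 41 genes had exactly 2 other start sites within the window and were included, and 31 had only 1 and were left out.

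The series measured trimethylation of lysine 9 of histone H3 (H3K9me3), a mark of silent chromatin, with ChIP-seq (sequencing of immunoprecipitated chromatin) in cultured neural stem cells (NSCs), isolated from cerebral cortices of mid-gestation C57BL/6J fetuses, grown with EGF and FGF. Cells of both conditions carried a lentiviral short hairpin RNA: a scrambled control (shCTR) or a hairpin against PHF8 (shPHF8), a histone demethylase whose known substrates include H3K9me2, H3K9me1 and H4K20me1. Each condition had 2 ChIP libraries and 1 input, which was not analysed here. The labels do not say whether the libraries came from separate cultures, so p-values measure only the spread between these libraries, which may be technical. They name 1 hairpin against PHF8, so effects of the hairpin itself and of PHF8 loss cannot be told apart. The peak lists hold no expression values, so neither the cell type nor the loss of PHF8 was checked here.

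Most genes with these names encode proteins with tandem C2H2 zinc fingers, small zinc-binding folds that read DNA and are joined by a conserved linker. Many also carry a KRAB domain, which recruits the co-repressor TRIM28 and with it the H3K9 methyltransferase SETDB1, and many of these proteins bind and silence transposable elements. The genes arose by repeated local duplication and sit in tandem arrays. In several cell types, H3K9me3 with TRIM28 and SETDB1 is known to lie over the 3' exons that encode the fingers.

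The fingers were counted by pattern in the translated coding sequences. At least 3 fingers were found in 209 of the 217 genes, the median being 11 and the extremes 0 and 27. The pattern found 0 fingers in 4 genes, among them Zfp36, which encodes an RNA-binding protein with fingers of another type. Of 2488 fingers in all, 2406 (96.7%) were encoded by the last exon of the transcript with the longest coding sequence, and in 205 genes every finger was. Last exons are therefore the finger-encoding part of nearly all these genes, and the coverage of the last exon and of the start site is compared throughout.

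A sequence that most of the last exons share is the linker between fingers. The 6 stretches shown are from the last exons of Zfp873, Zfp2 and Zfp68, which lay under peaks in every library, of Zfp93, which did so only in shPHF8, and of Zfp600 and Zfp819, which did so in none. Each was read 5' to 3' on the coding strand from GRCm38.p6, starts at the first pair of linkers exactly 84 bases (1 finger and its linker) apart, and runs to the end of the second, with both linkers in capitals.
Zfp873, chr10:82059956-82060054, + strand: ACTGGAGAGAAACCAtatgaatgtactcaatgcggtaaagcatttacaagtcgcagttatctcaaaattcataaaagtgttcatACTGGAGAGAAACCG
Zfp2, chr11:50900750-50900848, - strand: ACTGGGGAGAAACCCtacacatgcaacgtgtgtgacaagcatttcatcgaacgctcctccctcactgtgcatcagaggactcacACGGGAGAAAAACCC
Zfp68, chr5:138606776-138606874, - strand: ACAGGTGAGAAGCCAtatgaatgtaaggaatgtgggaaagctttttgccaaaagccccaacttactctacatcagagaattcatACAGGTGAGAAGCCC
Zfp93, chr7:24275513-24275611, + strand: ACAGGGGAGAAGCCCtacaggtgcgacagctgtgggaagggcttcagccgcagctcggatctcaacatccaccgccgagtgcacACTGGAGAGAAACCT
Zfp600, chr4:146195583-146195681, + strand: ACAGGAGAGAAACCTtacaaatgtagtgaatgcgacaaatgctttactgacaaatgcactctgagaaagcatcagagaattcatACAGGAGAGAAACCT
Zfp819, chr7:43617397-43617495, + strand: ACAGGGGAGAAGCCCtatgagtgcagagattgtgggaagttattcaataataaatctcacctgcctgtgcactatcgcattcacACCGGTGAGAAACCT

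Between pairs of these 6 stretches, from 57 to 67 of the 99 bases were identical. These include the fixed letters of both linkers, which are the same in every pair because the stretches were chosen by them. The linker letters searched were ACNGGNGANAANCCN, on the coding strand and on its complement. They occurred at least once in the last exon of 191 of the 217 clustered Zfp genes (88.0%) and at least 3 times in 165 (76.0%), with a median of 6 copies and up to 18. Among the last exons of all 20722 protein-coding genes with a coding transcript, 2.02% held the letters at all and 1.57% held them at least 3 times. On the complement they were in 0 last exons of the clustered genes and in 0.145% of all last exons. Zfp873 held 12 copies, Zfp2 11, Zfp68 6, Zfp93 10, Zfp600 13 and Zfp819 5.

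Peaks of shCTR replicates 1 and 2 covered 156.3 and 159.1 Mb of chromosomes 1 to 19, and those of shPHF8 replicates 1 and 2 covered 218.8 and 196.5 Mb. The library labelled shPHF8 replicate 1 stood apart, with 44205 peaks of median width 4200 bp, against 53039 to 55344 peaks of median width 2400 to 2800 bp in the other 3. The peak lists give positions without height or score, and depth cannot be read from them. How reads that match several places were treated is not given in the sources used here. Neighbouring genes of a cluster resemble each other, so the share of 50-base words (the read length) that occur only once in the genome was computed for each gene, and it is given beside results as the share of unique words.

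H3K9me3 peaks lay over a large part of the clustered Zfp genes in control cells. In shCTR replicates 1 and 2, 24.5 and 23.6% of the bases of the 217 genes were under a peak, against 6.34 and 6.46% of chromosomes 1 to 19 as a whole. In shPHF8 replicates 1 and 2 the shares were 31.6 and 30.0%, against 8.89 and 7.98%. The genes were thus 3.55 to 3.86 times as covered as these chromosomes in the 4 libraries, and the control and shPHF8 values of that ratio overlapped. The order of the genes was alike between libraries, with Spearman's rho of 0.89 to 0.92 for the covered share over the 217 genes, given as a description across genes that share libraries and, in part, peaks. The spans of the clusters outside the Zfp genes were covered to 13.7 and 13.6% in shCTR and 19.6 and 18.0% in shPHF8, below the genes in each library.

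Within the genes the mark was placed toward the 3' end. Each gene was divided into 20 equal bins, and 10 kb on either side into 10 bins each. The mean covered share of the first bin of the gene was 4.42 and 4.31% in shCTR and 5.30 and 5.47% in shPHF8, the lowest value along the profile in every library. The share rose along the gene to 38.2 and 39.0% in shCTR and 46.3 and 43.9% in shPHF8 in bin 19, and fell again past the gene's end. In the bin farthest upstream it was 18.4 to 26.6%, so the start sites lay in a dip between covered stretches. Among the genes with a peak, the median distance from the start site to the nearest covered base of the gene was 4978 and 5103 bp in shCTR and 4108 and 5028 bp in shPHF8. The 141 other Zfp genes had a similar shape at a lower level. Their share rose from 5.73 to 6.61% in the first bin of the gene to 22.5 to 27.1% in bin 18.

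**Figure D1:**
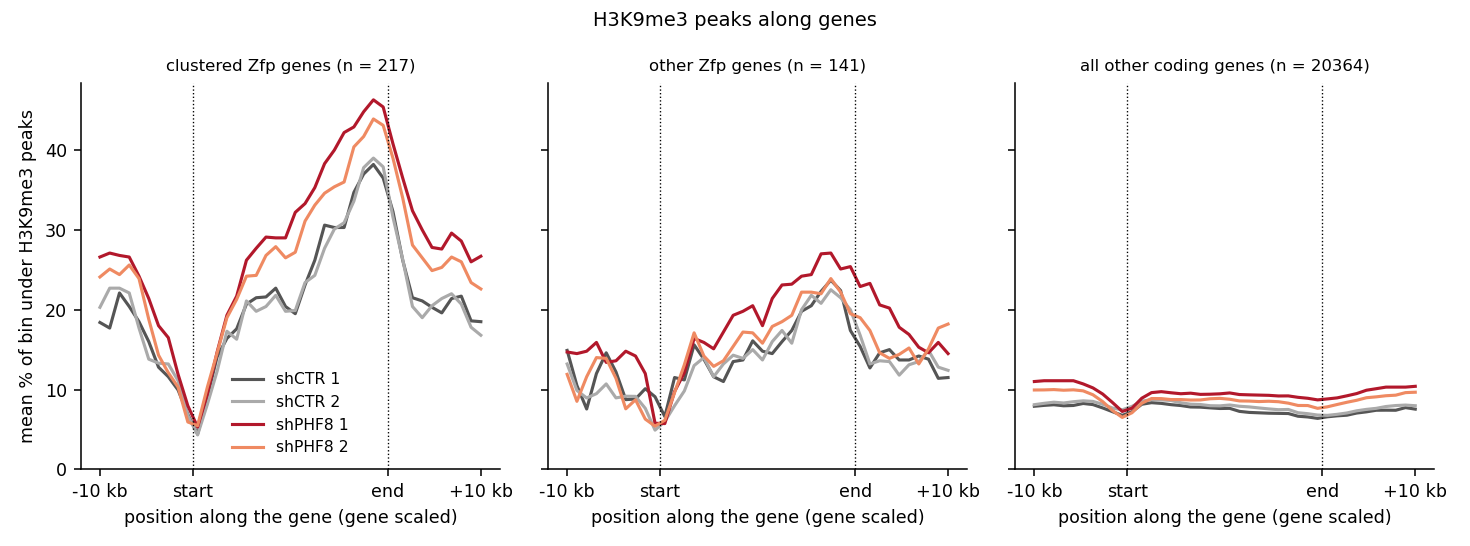
Mean percent of each bin under H3K9me3 peaks (y axis) along genes scaled to equal length with 10 kb flanks (x axis), 1 line per library, for the 217 clustered Zfp genes, the 141 other Zfp genes and all other coding genes. In the clustered genes every line is lowest at the start site and reaches 38.2 to 46.3% near the gene end. The other Zfp genes have a similar shape at a lower level, reaching 22.5 to 27.1% in bin 18 of the gene. In all other coding genes the lines stay below 12%.

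The last exon was at least 50% covered in 100 and 101 of the 217 genes in shCTR and in 116 genes in both shPHF8 libraries. In all 4 libraries together this held for 91 genes (41.9%), against 4.55% of the 20722 last exons of all protein-coding genes, and 91 genes did not reach it in any library. The start site lay in a peak in 10 genes in each shCTR library, and in 12 and 10 in shPHF8. It did so in all 4 libraries in 7 genes (3.23%), close to the 3.78% of all 20807 genes. An exon offers more bases to a peak than a single start site does, so the middle base of the last exon was also taken as a point. That base lay in a peak without the start site in 95 and 93 genes in shCTR and 104 and 107 in shPHF8, while the start site alone did so in 4, 2, 1 and 1. In all 4 libraries the middle base lay in a peak in 91 genes, against 4.6% of all last exons.

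Whole genes were covered less often than last exons. At least 50% of the gene was under peaks in 43 and 37 genes in shCTR and 61 and 52 in shPHF8, and in all 4 libraries in 31 genes (14.3%), against 2.59% of all protein-coding genes. No peak touched the gene in any library in 57 of the 217 (26.3%), against 50.8% of all protein-coding genes. The counts of whole genes and of start sites depended on where the limit was set. With 25 or 80% in place of 50%, 70 and 10 genes were covered in every library, and 18 genes had a peak within 1 kb of the start site in every library.

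**Figure D2:**
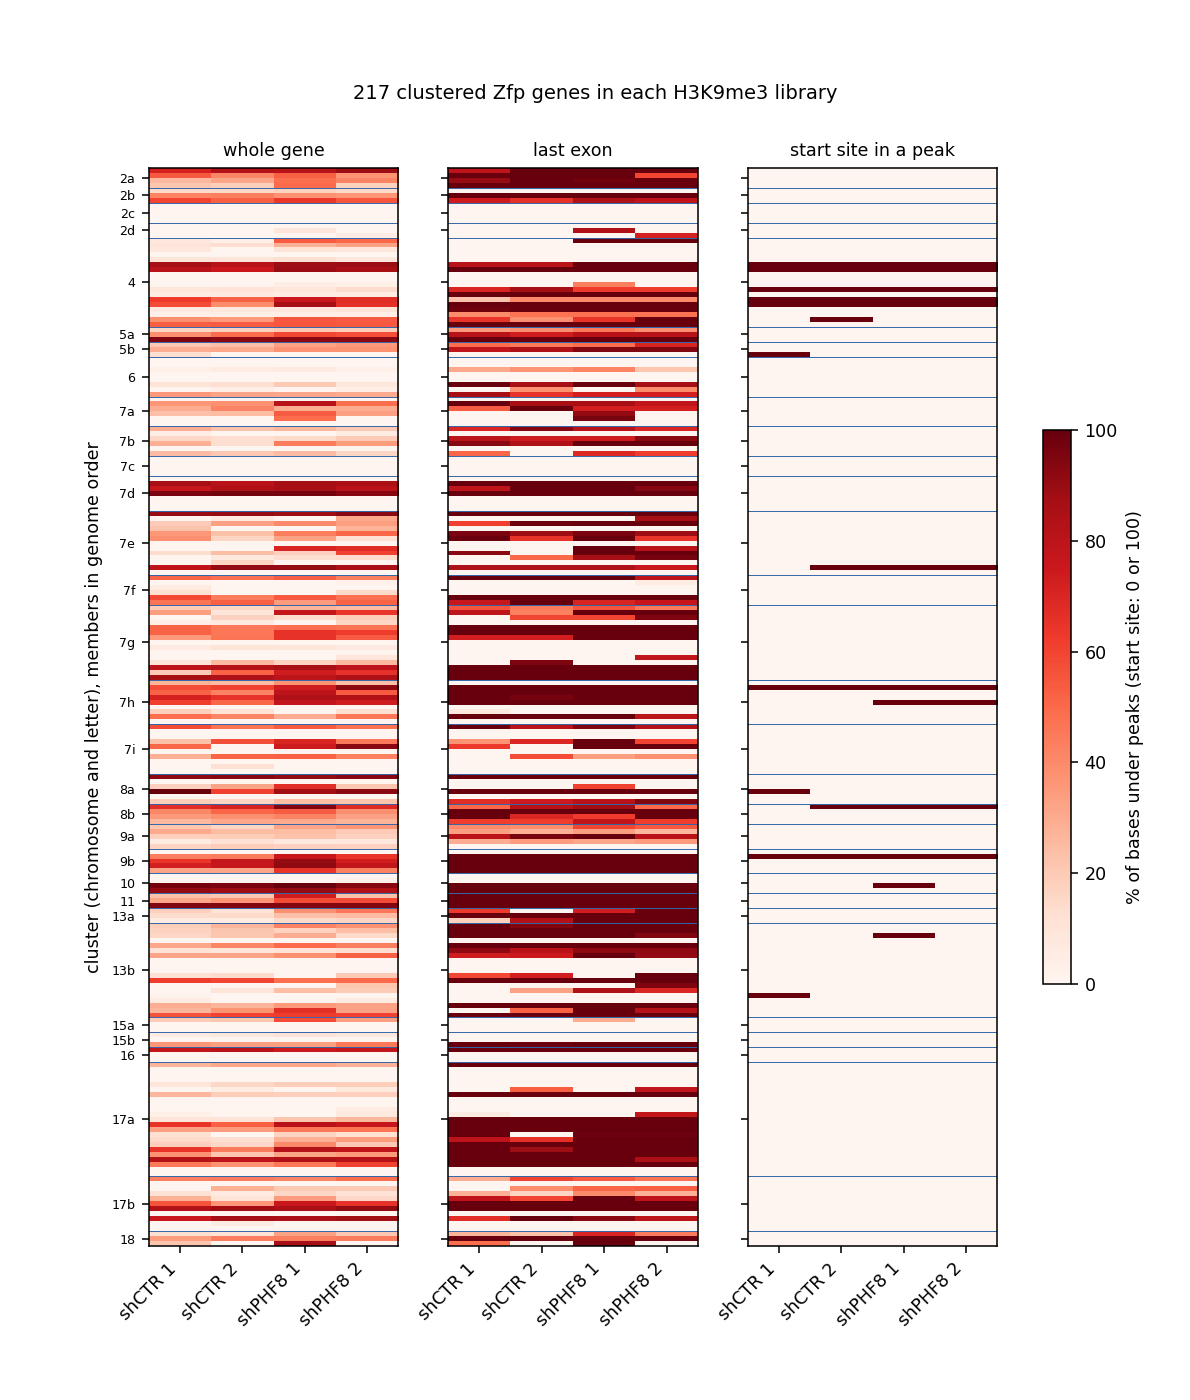
Heat map of the 217 clustered Zfp genes (rows, in genome order, blue lines between clusters) in the 4 libraries (columns), with the percent of the gene and of the last exon under peaks in red from 0 to 100, and start sites shown as in a peak (dark) or not (pale). The last exon is at least 50% covered in all 4 libraries in 91 rows and the start site is in a peak in all 4 in 7 rows, 5 of them in the chromosome 4 cluster.

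The 8 most covered genes were nearly filled by peaks up to a short distance from their start site. In 31 of the 32 combinations of gene and library the first covered base lay 440 to 2877 bp inside the gene, and in 5 of the 8 genes a single peak covered all of the rest in every library. Zfp873 (chr10:82048123-82064745, + strand, 16 fingers) was covered to 97.1 and 95.9% in shCTR and 100 and 93.5% in shPHF8. Zfp110 (chr7:12834761-12850577, + strand), which encodes a protein known to bind the neurotrophin receptor p75, was covered to 96.0 and 97.2% in shCTR and 97.2 and 93.4% in shPHF8. In both genes the 2 conditions overlapped.

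Zfp2 (chr11:50898712-50916165, - strand, 13 fingers) had the same 94.5% in all 4 libraries, with 965 bp free from its start site on. Zfp68 (chr5:138603652-138619761, - strand, 9 fingers) had 95.3 and 92.8% in shCTR and 92.8% in both shPHF8 libraries. The other 4 of the 8 most covered genes, Zfp930, Zfp180, Zfp938 and Zfp763, had means over the 4 libraries of 92.5, 90.4, 88.6 and 86.7%. All 8 had a last exon covered to 100% in every library. The start site of Zfp873 lay in a peak in shPHF8 replicate 1, and none of the other 7 start sites lay in a peak in any library. Between 93.1 and 100% of the words of their last exons were unique.

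A start site lay in a peak in at least 1 library in 16 genes, 6 of them in the 18-gene cluster on chromosome 4. Of the 7 genes with the start site in a peak in all 4 libraries, Zfp992, Zfp981, Zfp988, Zfp982 and Zfp985 lay in that cluster, Zfp977 on chromosome 7 and Zfp872 on chromosome 9. The chromosome 4 cluster had little unique sequence, with a median share of unique words over its genes of 17.9%. Its 5 genes with a covered start site had 16.2 to 71.6% over the whole gene. In the 500 bases centred on the start site the share was 50.0% in Zfp992 and 66 to 84% in the other 4. In the remaining genes of the cluster that window ranged from 0 to 100% unique words, and most lay below 50.0%. Zfp872 had 100% in the same window and Zfp977 had 75.6%. Of the 169 genes whose last exon had at least 80% unique words, 2 (1.18%) had the start site in a peak in all 4 libraries, and of the other 48 genes, 5 did (10.4%). The part of sequence likeness in this result was not tested.

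CpG sites, which DNA methylation can modify, were counted in the start regions. RefSeq promoters of 300 bases (250 before the start site and 50 after it) were found for 185 of the 217 genes, and within 1 kb of the GENCODE start site for 168. Those of 159 genes with no start site in a peak held a median of 11 CpG sites (range 1 to 39), and those of 5 genes with the start site in a peak in all 4 libraries held a median of 6 (range 4 to 17). Of these 5, 3 lay in the chromosome 4 cluster, where 6 genes with no start site in a peak had as few CpG sites (median 4, range 3 to 9). Over 31396 RefSeq promoters of chromosomes 1 to 19 the median was 7. Zfp68 and Zfp985 are shown, since Zfp68 was covered to above 90% with its start site free in every library and the start site of Zfp985 was in a peak in every library. Both are RefSeq sequences of GRCm38.p6, 5' to 3' on the gene's strand, with CpG sites (the letters CG, which read the same on both strands) in capitals.
Zfp68, chr5:138619694-138619993, - strand: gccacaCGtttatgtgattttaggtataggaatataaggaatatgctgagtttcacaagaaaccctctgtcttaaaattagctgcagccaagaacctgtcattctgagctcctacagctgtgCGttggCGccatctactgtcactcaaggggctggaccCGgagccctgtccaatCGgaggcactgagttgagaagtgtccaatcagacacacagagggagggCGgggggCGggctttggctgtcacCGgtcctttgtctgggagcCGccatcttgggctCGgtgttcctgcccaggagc
Zfp985, chr4:147553027-147553326, + strand: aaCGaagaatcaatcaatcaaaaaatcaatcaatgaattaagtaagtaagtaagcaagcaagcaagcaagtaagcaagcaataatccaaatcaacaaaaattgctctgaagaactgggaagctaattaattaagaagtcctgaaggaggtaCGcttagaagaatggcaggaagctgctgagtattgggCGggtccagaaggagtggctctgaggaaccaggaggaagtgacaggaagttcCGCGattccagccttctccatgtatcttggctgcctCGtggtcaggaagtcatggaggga

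Zfp68 held 10 CpG sites in this window and Zfp985 held 6. Zfp985 (chr4:147553277-147585198, + strand, 10 fingers) was covered to 58.0 and 39.2% in shCTR and 86.2 and 66.2% in shPHF8, without overlap, and its start site and all of its last exon were covered in every library. Zfp872 (chr9:22188090-22202123, + strand, 12 fingers) was covered to 43.0 and 44.4% in shCTR and 75.8 and 64.4% in shPHF8, again without overlap. Zfp988 showed another pattern, with its start site and 62.2 to 86.5% of its last exon covered in every library but only 8.77 to 13.8% of the gene. Zfp936 on chromosome 7 was the only gene with a start site in a peak in both shPHF8 libraries and neither shCTR library, against 0.529% of all genes, and no gene had the opposite pattern, against 0.726%.

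The clusters differed widely from each other. The most covered was the 3-gene cluster on chromosome 11 that ends with Zfp2, with 55.7 and 57.1% of its genes' bases under peaks in shCTR and 76.7 and 65.2% in shPHF8. The largest, with 23 genes from Zfp160 to Zfp13 on chromosome 17, had 22.5 and 20.0% in shCTR and 28.2 and 29.1% in shPHF8, and 11 of its last exons were at least 50% covered in all 4 libraries. Its end genes stood apart, since the last exon of Zfp160 was covered to 100% in every library and Zfp13 had no peak.

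The 19-gene cluster from Zfp712 to Zfp273 on chromosome 13 had 15.3 and 17.6% of its genes' bases covered in shCTR and 20.9 and 21.3% in shPHF8. The 18-gene cluster from Zfp990 to Zfp933 on chromosome 4 had 22.9 and 20.4% in shCTR and 31.2 and 29.4% in shPHF8. In these 3 largest clusters the conditions did not overlap, and neither did they for all covered bases of chromosomes 1 to 19. The ratios of shPHF8 to shCTR were 1.35, 1.28 and 1.4 in the order named, against 1.32 for those chromosomes. The 8-gene cluster on chromosome 6 had only 5.59 to 7.33% in the 4 libraries, although its median share of unique words was 98.1%.

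In 2 clusters of 4 genes no base of the genes was covered in any library. The cluster from Zfp968 to Zfp966 on chromosome 2 had a median of 0% unique words and no covered base between the genes either. The cluster from Zfp954 to Zfp772 on chromosome 7 had a median of 87.2% unique words over its genes and 96.7% over its last exons, and 5.79 to 8.52% of its span outside the genes was covered in the 4 libraries.

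**Figure D3:**
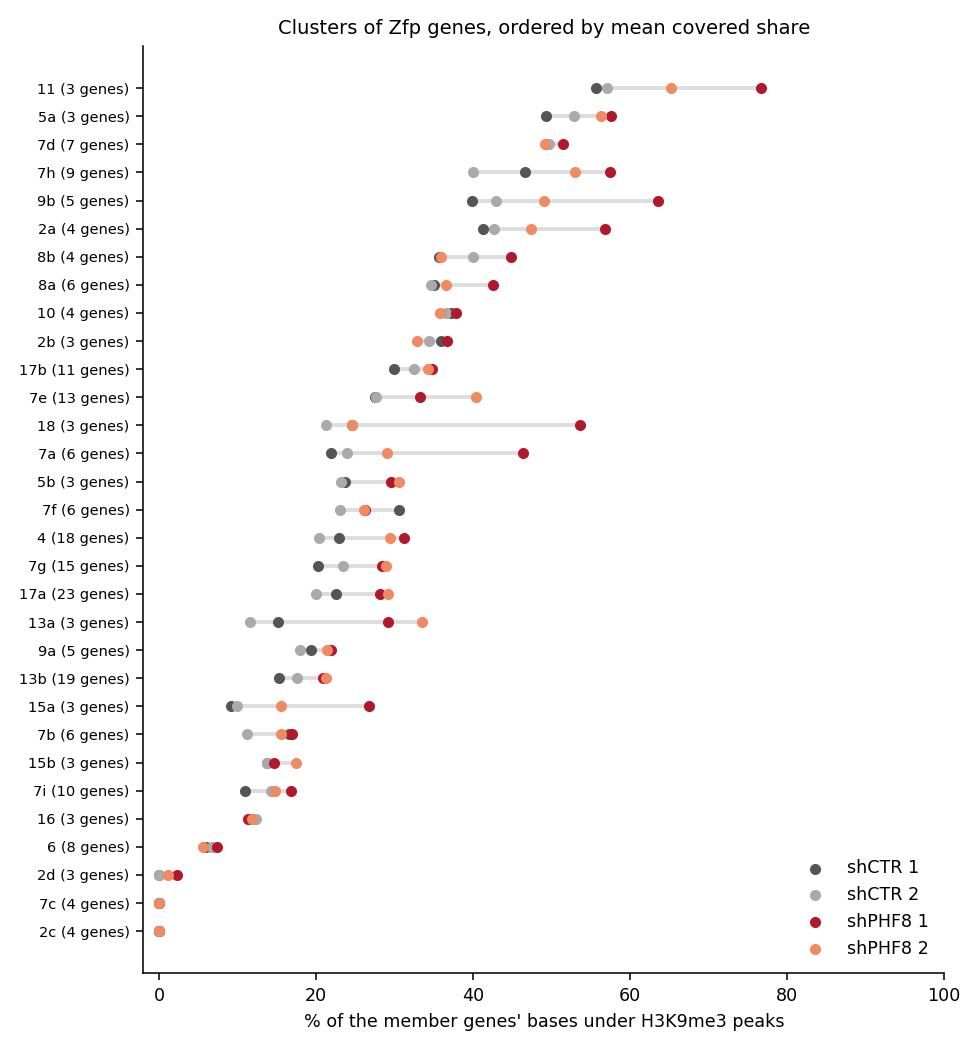
Percent of the bases of the clustered Zfp genes under H3K9me3 peaks (x axis) in each of the 31 clusters (rows, named by chromosome and letter, with the number of genes), 1 point per library and a grey bar from the lowest to the highest. Clusters range from 0% in every library to 55.7 to 76.7% on chromosome 11.

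Whether last exons with many fingers were covered more often was described over the 217 genes. Of 20 genes with 0 to 4 fingers, 5 (25.0%) had the last exon at least 50% covered in all 4 libraries, as did 14 of 48 (29.2%) with 5 to 9, 50 of 96 (52.1%) with 10 to 14, and 22 of 53 (41.5%) with 15 or more. By copies of the linker letters, the shares were 30.8% of 52 genes with 0 to 2 copies, 35.7% of 84 with 3 to 7, and 55.6% of 81 with 8 or more. Across genes the rank correlation of finger number with the covered share of the last exon was weak (Spearman's rho 0.16, n = 217), and that of last exon length was 0.00. These genes share libraries and sequence, and the values are descriptions.

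Among the 152 genes with a KRAB-like string near the protein's start, 65 (42.8%) had the last exon covered to that extent in all 4 libraries, and among the 65 without it 26 did (40%). The string, Y, 2 residues, VM, 1 residue and E, was chosen after a stricter string had been found in only 64 genes.

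Low uniqueness went with uncovered last exons at its lowest values. Of 14 genes with under 20% unique words in the last exon, 0 reached 50% coverage in all 4 libraries and 9 had no peak at all. From 20 to 50% unique words, 7 of 14 genes reached it, from 50 to 80% 11 of 20, and from 80% upward 73 of 169 (43.2%). Of these 169 genes with mostly unique last exons, 47 had no peak in the gene in any library.

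Other zinc finger genes and other neighbours were counted in the same way. Of 40 other genes with at least 3 fingers that lie inside the cluster spans under other names, 13 (32.5%) had the last exon at least 50% covered in all 4 libraries and 0 had the start site in a peak in all 4. Of the 170 genes in the spans with fewer than 3 fingers, 11 (6.47%) had a covered last exon and 7 (4.12%) a covered start site. The 141 Zfp genes outside the rule had 22.7 and 2.84%. Split by the KRAB-like string, which gave 42.8 and 40% in the clustered genes, 15 of the 30 of these with the string had a covered last exon (50.0%), and 17 of the 111 without it (15.3%). The 30 had 25.8 and 24.6% of their gene bases covered in shCTR and 34.4 and 30.8% in shPHF8, slightly above the clustered genes in every library. The 261 other genes with at least 3 fingers outside the spans had 18.8 and 6.90%. The share of gene bases under peaks was 11.5 and 11.3% in shCTR and 14 and 12.6% in shPHF8 for the Zfp genes outside the rule, and 6.99 and 7.20% and 9.97 and 8.90% for neighbours with fewer than 3 fingers. These shares were not tested against each other, since genes are not replicates.

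The 9 clustered genes on a list of zinc finger genes studied as silencers showed several patterns. Zfp809, whose protein represses murine leukaemia virus through its primer binding site, was covered to 64.4 and 76.8% in shCTR and 90.4 and 72.3% in shPHF8, with its last exon fully covered in all 4. It is an exception to the common layout, as its last exon of 321 bp holds 0 of its 7 fingers. Zfp568, which represses a placental Igf2 transcript, had 6.32 and 10.4% of the gene covered in shCTR and 9.47 and 6.77% in shPHF8, and 0% of the last exon in every library.

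Zfp708 had a fully covered last exon in all 4 libraries with only 16.8 to 23.8% of the gene covered. Zfp882 also had a fully covered last exon in all 4, and Zfp961 had 61.7 to 78.1% of it. Zfp600 had 0% of the last exon covered in every library, with 12.2% of its words unique. Zfp819 and Zfp429 had no peak in any library, with 100 and 79.8% unique words in the last exon. Zfp87 had a peak in shPHF8 replicate 2 alone, which covered 21.4% of the gene. In none of these 9 listed genes were the conditions separate, against 27.8% higher and 12.8% lower of all genes with a peak. Zfp819, Zfp429 and Zfp87 could not separate, since they had no peak or a peak in a single library.

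The effect of PHF8 depletion on coverage was compared over the 4 libraries. The clustered Zfp genes had 1.041 and 1.004 Mb covered in shCTR and 1.343 and 1.276 Mb in shPHF8, 1.28 times as much on average (p = 0.333 by an exact two-sided permutation test of the 4 libraries). With 2 libraries a condition no lower p is possible, so 0.05 cannot be reached. All covered bases of chromosomes 1 to 19 had a ratio of 1.32, so the clustered genes' share of them did not rise. It was 0.667 and 0.631% in shCTR and 0.614 and 0.649% in shPHF8, a ratio of 0.973 with overlapping conditions (exact permutation test, p = 0.667). The ratio of covered bases was 1.25 without shPHF8 replicate 1, the library with the wide peaks.

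Gene by gene, 57 of the 160 clustered Zfp genes with a peak in any library had more covered bases in both shPHF8 libraries than in both shCTR libraries (35.6%), and 4 had fewer (2.50%). Over all 10247 protein-coding genes with a peak the shares were 27.8 and 12.8%. Of the 95 Zfp genes outside the rule with a peak, 39 were higher (41.1%) and 7 lower (7.37%). The high share of higher genes was thus not particular to the clustered genes. In the clustered genes the median difference in covered share was 4.33 percentage points (quartiles 0.32 and 14.3). It was 2.7 in the Zfp genes outside the rule and 1.06 over all genes with a peak. When covered bases were divided by each library's total, the direction of the counts turned, with 25 clustered genes higher (15.6%) and 52 lower (32.5%). The shares were 14.8 and 29.9% of all genes with a peak, and 13.7 and 30.5% of the Zfp genes outside the rule.

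By uniqueness of the last exon, 36 of 122 clustered genes with at least 80% unique words and a peak were higher before scaling (29.5%). This is near the 27.8% of all genes with a peak. Of the 38 others, 21 were higher (55.3%). The part of sequence likeness in the higher count was not tested. With the KRAB-like string 50 of 117 genes with a peak were higher (42.7%), and without it 7 of 43 were (16.3%). Nearly all clustered genes without the string had unique last exons (64 of 65). Among clustered genes with unique last exons, 29 of 80 with the string (36.2%) and 7 of 42 without it (16.7%) were higher. These lie above and below the 27.8% of all genes with a peak. Of the Zfp genes outside the rule with the string and a peak, 15 of 22 were higher (68.2%). After scaling to each library's total, 3 of these 22 were higher (13.6%) and 4 lower (18.2%). Of all genes with a peak, 14.8% were then higher and 29.9% lower. The counts given for clustered genes with and without the string are before scaling. The other genes with at least 3 fingers in the same spans were higher in 20 of 26 (76.9%), with a median difference of 11.6 percentage points, and after scaling 10 were higher (38.5%) and 4 lower (15.4%).

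Of the 6 largest rises in covered share, 2 were in genes with little or no peak in either control library. Zfp93 (chr7:24270420-24277794, + strand, 13 fingers) had no covered base in either shCTR library and 70.4 and 67.8% of the gene covered in shPHF8. Its last exon was covered to 100 and 80.6% there. Zfp990 (chr4:145510759-145539188, + strand, 13 fingers) had 8.44 and 3.52% in shCTR and 54.1 and 50.6% in shPHF8, with the last exon at 0% in both shCTR libraries and 100% in both shPHF8 libraries. The conditions of all 6 genes were separate by the rule that chose them. The last exons of Zfp93 and Zfp990 had 78.9 and 67.8% unique words.

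Zfp764 (chr7:127403668-127406822, - strand) had 50.7 and 0% in shCTR and 74.0 and 93.0% in shPHF8, so its shCTR libraries were far apart, 1 of them without a peak. Zfp30 (chr7:29783998-29794702, + strand, 12 fingers) had 33.6 and 9.34% in shCTR and 77.6 and 64.5% in shPHF8, and all of its last exon's words were unique. Zfp382 had 19.6 and 51.9% in shCTR and 73.4 and 65.7% in shPHF8. Zfp808 had 18.2 and 10.4% in shCTR and 38.2 and 46.1% in shPHF8, with 44.1% unique words in the last exon. All 6 of these genes remained higher in both shPHF8 libraries after scaling to the total. Since they were picked for large rises, this is no independent evidence.

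At the level of the last exon, 5 genes (Zfp990, Zfp93, Zfp560, Zfp748 and Zfp799) reached 50% coverage in both shPHF8 libraries and in neither shCTR library, or 2.3%, against 0.956% of all last exons. No gene had the opposite pattern, against 0.449%.

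In the 4 genes that were lower in both shPHF8 libraries, the covered share fell by 3.31 to 11.6 percentage points. Zfp58 had 61.9 and 60% of the gene covered in shCTR and 48.5 and 50.4% in shPHF8. Zfp663 had 41.9 and 43.0% against 37.3 and 36.2%, Zfp948 26.3 and 18.9% against 18.0% in both, and Zfp467, which encodes a regulator of the choice between bone and fat cells, 35.3 and 32.0% against 30.9 and 29.8%. In Zfp58, Zfp663 and Zfp948 the last exon stayed covered to 100% in all 4 libraries, so the bases covered only in shCTR lay elsewhere in these genes.

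**Figure D4:**
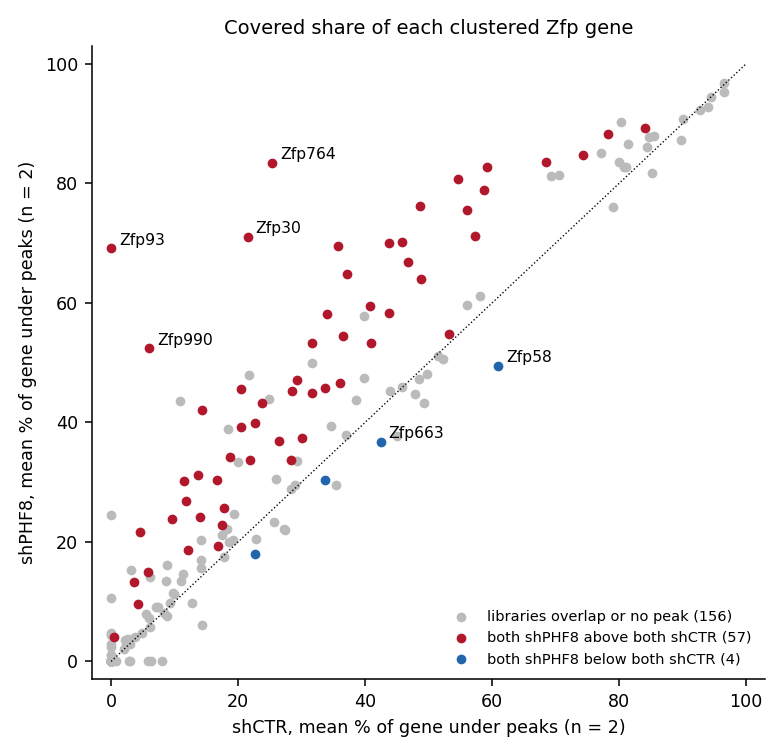
Mean percent of each clustered Zfp gene under peaks in shCTR (x axis) and shPHF8 (y axis), 2 libraries each, with 57 genes above in both shPHF8 libraries in red, 4 below in blue and the others in grey, and a dotted line of equality. Genes covered to above 90% lie on the line, and Zfp93 and Zfp990 rise from near 0.

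By cluster, the largest ratios of shPHF8 to shCTR were in 3-gene clusters. The cluster from Zfp808 to Zfp934 on chromosome 13 had 15.1 and 11.6% of its genes' bases covered in shCTR and 29.1 and 33.5% in shPHF8, a ratio of 2.35, and all 3 genes were higher in both shPHF8 libraries. Its median share of unique words was 47.4%. The cluster from Zfp41 to Zfp707 on chromosome 15 had a ratio of 2.22, from 9.17 and 9.88% to 26.8 and 15.5%, and only Zfp41 was higher in both shPHF8 libraries.

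Peaks that touched the clustered genes were wider than other peaks. A wide peak is likelier to touch a gene than a narrow one, and the other peaks were not limited to those on genes. The part of this selection in the difference was not tested. The median width of those touching a clustered Zfp gene was 3200 and 3000 bp in shCTR and 5800 and 4100 bp in shPHF8, against 2400 and 2400 bp and 4200 and 2800 bp for all other peaks. The number of such peaks was 241 and 251 in shCTR and 218 and 264 in shPHF8, and 3 to 7 of them per library reached over 2 or more of the genes, so that few of the genes shared a peak with another.

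Genes for the machinery that writes, reads or removes H3K9 methylation were counted from a list. Of 18 listed genes, 10 had no peak in any library, among them Trim28, which encodes the co-repressor that KRAB domains recruit, and Phf8 itself. This is near the share of all protein-coding genes without a peak, 50.8%. Fam208a, a subunit of the HUSH silencing complex, was the only one with its start site in a peak in all 4 libraries, against 3.78% of all genes, with 9.81 to 13.1% of the gene covered. Atf7ip, the partner of SETDB1, had 58.8 and 63.5% of the gene covered in shCTR and 61.8 and 51.5% in shPHF8, with overlapping conditions. None of the 18 had the last exon at least 50% covered in all 4 libraries, against 4.55% of all last exons.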

How the data were processed

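The authors aligned single-end reads of 50 bases to mm10 with SOAPaligner/SOAP2 and called broad peaks with SICER2, and they deposited 1 peak list per library, with positions only. The labels also name Bowtie2 2.3.5.1, SAMtools 1.9 and deepTools without a role. Window, gap, threshold and use of the input are not given in the sources used here. The methods name for the ChIP the antibody that they list for H4K20me1, and the labels name H3K9me3. An antibody against H3K9me3 is also in the paper's antibody list, but the ChIP procedure does not name it. The labels and the methods differ in the cells per ChIP.

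Starts were read as 0-based and ends as inclusive. Bases of each gene, its start site and its last exon under peaks were counted per library with GENCODE M21, in Python 3.11.15 with numpy 2.4.6, scipy 1.17.1 and numba 0.67.0. The counting was checked against bedtools 2.31.1 on simulated peaks. Fingers were counted in translated GENCODE coding sequences, where RefSeq proteins had been planned, as C, 2 or 4 residues, C, 12 residues, H, 3 to 5 residues, H. KRAB-like strings were searched in the first 150 residues. A gene was called higher or lower when the 2 shPHF8 values were both above or both below the 2 shCTR values. Named were the 8 most covered genes, the 6 largest rises and falls among separated genes (only 4 fell), the clustered genes of a list of known silencers, the ends of the 3 largest clusters and any machinery gene with a covered start. Zfp985, Zfp872, Zfp988, Zfp36, Atf7ip, Trim28, Phf8, the ends of other clusters and the genes in counts of 7 or fewer were named after their values were seen. The genes and lists were chosen with earlier results of these data known. Replicate numbers were not used to pair the libraries, except as a block in the recomputed results.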

Additional observations from a re-analysis of the deposited data

How the results depend on the processing

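The results were recomputed with wide peaks only, equal numbers or lengths of the widest peaks, scaling to the total, other limits, start site and exon definitions, other membership rules, each library left out, and the replicate number as a block. Of 79 alternative values, 61 kept their direction and stayed within 1.5 times the reported value, 17 moved further and 1 reversed. The covered bases ratio of 1.28 became 0.973 when scaled to the total, the reversal. It was 1.25 to 1.31 with each library left out and 1.28 with the replicate block. At an equal covered length it was 1.14, with only unique last exons 1.19, and with peaks of at least 4000 bp 1.46. The 31 genes with at least 50% covered in all libraries became 70 at 25% and 10 at 80%. The 7 genes with a covered start site became 3 with peaks of at least 4000 bp, 18 within 1 kb, 21 with the start of any coding transcript and 2 with only unique last exons, a setting added after seeing the data. The 57 higher genes became 25 after scaling, 36 with only unique last exons, 70 with the replicate block and 72 to 88 with each library left out (88 without shPHF8 replicate 2). The 4 lower genes became 22 at an equal covered length, 52 after scaling, 2 with start sites within 250 kb, 10 with the replicate block and 15 to 22 with each library left out; fewer values then have to separate. The deviations of same-numbered libraries correlated at 0.01 over 160 clustered genes. With so few libraries a condition, this value cannot show whether same-numbered libraries were handled together. The count of 91 covered last exons ranged from 62 (peaks of at least 4000 bp) to 102 (25% covered). Peak lists show neither depth nor height, so changes within a peak are not seen.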
